A study of Mus musculus with 12 samples.

Results

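The genes described here encode the receptors through which glutamate and GABA act on sensory ganglia. They were chosen by symbol: AMPA (Gria), kainate (Grik), NMDA (Grin) and metabotropic (Grm) glutamate receptor subunits, and GABA-A (Gabra, Gabrb, Gabrg, Gabrr) and GABA-B (Gabbr) receptor subunits, with at least 10 reads summed over the 6 RNA libraries. Of 44345 gene symbols in the files, 41 matched and 36 reached 10 reads, 20 for glutamate and 16 for GABA receptors. Just inside that minimum lay Grin3b, with 52 reads, and just outside it Grm2, with 8. Grin2b had 6 reads, Grin2a and Grm6 had 2 each, and Gabra6 had 0. RNA sequencing covered 3 libraries from mice given MS275, the class I histone deacetylase inhibitor entinostat, at 12 mg/kg and 3 from mice given its vehicle. Both were injected intraperitoneally, first when the lesion was made and once more 2 h before sacrifice. All mice were C57BL/6, aged 6 to 8 weeks, and all had the dorsal columns of the spinal cord cut 24 h earlier, so no uninjured ganglia enter the comparison. Each RNA library came from whole L4 to L6 dorsal root ganglia pooled from 2 mice, with neurons, glia, vessels and immune cells together, and reads assigned to genes numbered 34992533 to 56542966 in MS275 libraries and 39148369 to 60370523 in vehicle libraries. Open chromatin was mapped by ATAC-seq in 3 mice per treatment, for which 1 combined list of regions per treatment was used.

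Glutamate opens AMPA, kainate and NMDA receptors, which are cation channels assembled from several subunits, and acts more slowly through metabotropic receptors coupled to G proteins. GABA opens GABA-A receptors, which are chloride channels, and acts through GABA-B receptors, which couple to G proteins and need both Gabbr1 and Gabbr2 products. Sensory neurons of the ganglia release glutamate in the spinal cord and carry many of these receptors on their own central terminals, where they set how much transmitter is released. Their chloride concentration is kept high by the importer NKCC1, so that GABA depolarises them.

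Promoter sequences and start sites were taken from RefSeq (GRCm38.p6, the same assembly as mm10), which matched 26 of the 36 genes. The 250 bases before an annotated start are shown for 4 genes that carried the most reads of their class and whose start lay in an open region in both lists: Gria4 (AMPA, chr9:4796235-4796484, minus strand), Grin1 (NMDA, chr2:25319188-25319437, minus strand), Grm7 (metabotropic, chr6:110645262-110645511, plus strand) and Gabbr1 (GABA-B, chr17:37045716-37045965, plus strand). Grm7 has 2 annotated starts. Its gene begins at 110645349, inside the window shown, so part of that window lies within the gene. They are written 5′ to 3′ in the direction of transcription, and capitals mark the GC box GGGCGG on either strand, a sequence that Sp family factors can bind.
Gria4: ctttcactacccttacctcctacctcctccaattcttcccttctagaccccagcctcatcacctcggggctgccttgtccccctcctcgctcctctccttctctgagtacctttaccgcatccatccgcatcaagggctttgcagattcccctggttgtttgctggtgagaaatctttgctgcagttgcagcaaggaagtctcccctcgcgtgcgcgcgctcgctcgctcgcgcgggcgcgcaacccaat
Grin1: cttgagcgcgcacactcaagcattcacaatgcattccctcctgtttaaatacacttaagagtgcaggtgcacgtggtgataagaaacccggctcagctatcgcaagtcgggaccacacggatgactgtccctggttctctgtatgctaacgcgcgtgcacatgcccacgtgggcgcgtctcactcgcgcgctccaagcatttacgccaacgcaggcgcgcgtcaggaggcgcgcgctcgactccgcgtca
Grm7: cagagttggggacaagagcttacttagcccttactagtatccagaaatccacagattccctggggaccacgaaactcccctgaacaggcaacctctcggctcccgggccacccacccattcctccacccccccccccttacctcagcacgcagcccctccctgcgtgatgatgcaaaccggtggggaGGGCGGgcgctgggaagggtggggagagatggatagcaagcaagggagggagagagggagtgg
Gabbr1: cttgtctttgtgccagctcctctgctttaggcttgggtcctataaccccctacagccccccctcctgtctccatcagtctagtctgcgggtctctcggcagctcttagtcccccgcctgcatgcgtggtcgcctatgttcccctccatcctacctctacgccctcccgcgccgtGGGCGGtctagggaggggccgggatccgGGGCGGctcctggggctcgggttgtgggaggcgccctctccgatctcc
The GC box occurred 2 times before Gabbr1, 1 time before Grm7, and 0 times before Gria4 and Grin1. Among the 26 receptor windows, 14 held it on either strand (53.8%), against 33.0% of 27025 windows, 1 per gene. TATAAA was in 3 of the 26 (11.5%, against 13.0%), CCAAT in 9 (34.6%, against 34.5%) and TGACGT, the core of a cyclic AMP response element, in 0 (against 6.52%), both strands searched and overlaps between motifs allowed. CG pairs numbered 16, 27, 8 and 16 in the windows of Gria4, Grin1, Grm7 and Gabbr1, with a median of 10.5 over the receptor windows and 6 over all windows. These are matches of letters and were not tested as binding sites. A lncRNA gene overlaps the windows of Gria4 (Gm46100) and Grm7 (Gm20387).

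The comparison asked which receptor transcripts differed between MS275 and vehicle ganglia 24 h after injury. Of 35 receptor genes tested (Grin3b did not pass the filter on low counts), 1 rose, the kainate receptor gene Grik1, and 0 fell, at an adjusted p under 0.05 in edgeR's quasi-likelihood test with Benjamini-Hochberg adjustment over all 16819 genes. That is 2.86% of the receptor genes, against 11.0% of all genes (5.10% higher and 5.89% lower). DESeq2 and limma voom also called 0 receptor genes lower. At an unadjusted p under 0.05, 1 was higher and 6 were lower, against 13.6% and 14.9% of all genes. The median log2 fold change of the receptor genes was -0.01, and that of all genes tested 0.00. A p-value that misses the threshold does not show that levels were equal, so intervals are given with the classes. The 95% interval of the log2 fold change lay inside 1.5-fold either way for 25 of the 35 receptor genes (71.4%), against 70.8% of all genes. In 2 receptor genes all MS275 libraries lay above all vehicle libraries, and in 6 all lay below, against 15.9% and 17.9% of all genes. Of the 8, 5 of the 6 lower ones and 1 of the 2 higher ones encode glutamate receptors, which were 19 of the 35 tested. The lower ones were 26.3% of the glutamate and 6.25% of the GABA receptor genes tested, and 17.1% of all 35. The higher ones were 5.26%, 6.25% and 5.71%. The difference between the 2 transmitters was not tested. In whole ganglia, fewer cells of a type and less RNA per cell cannot be told apart.

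**Figure D1:**
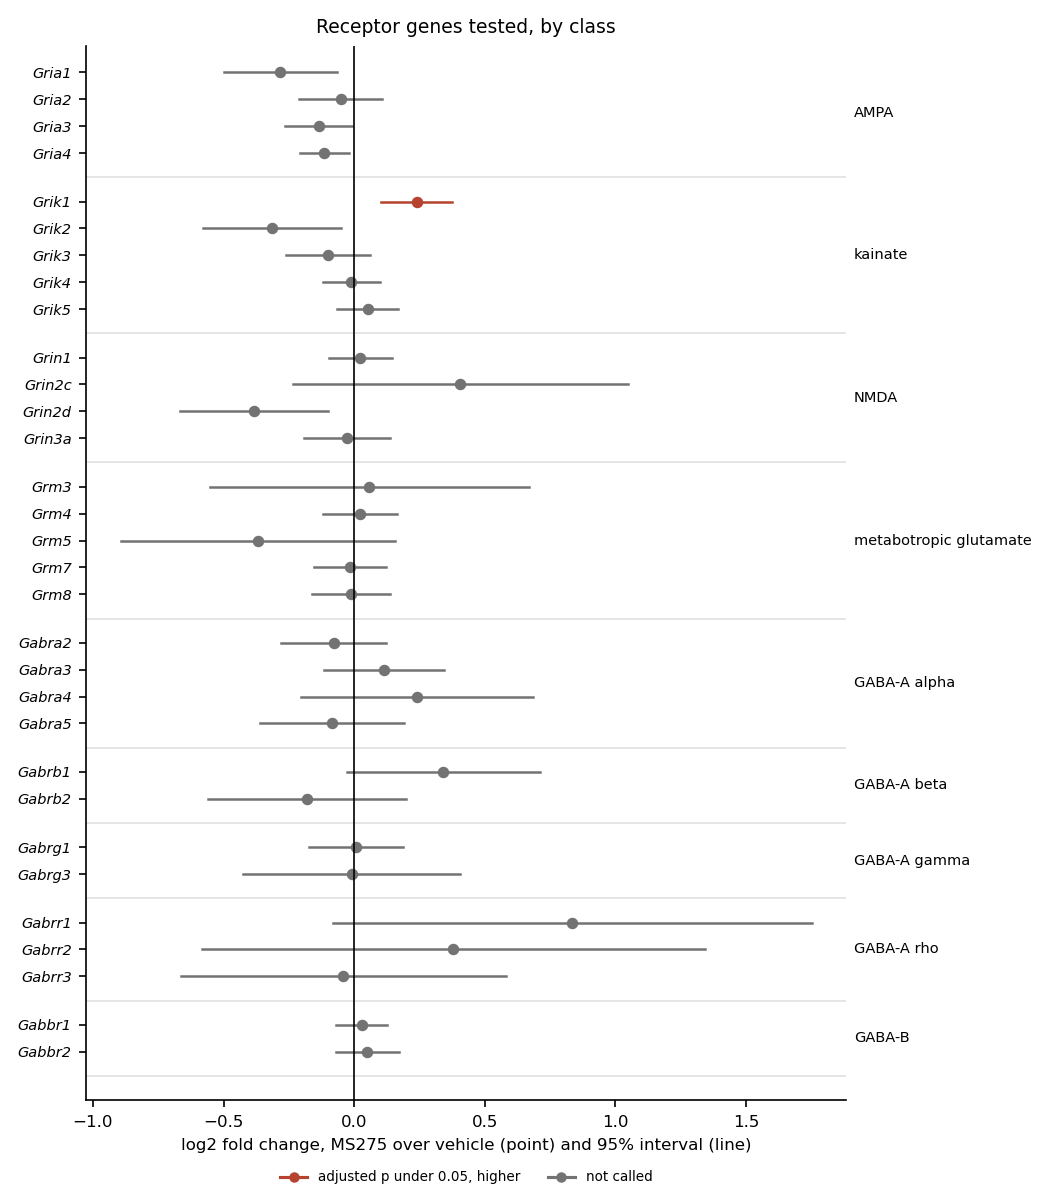
Log2 fold change of 31 of the 35 receptor genes tested (rows, by class), MS275 over vehicle, with points for the edgeR estimate and lines for the 95% interval (3 libraries per treatment). Grik1 (0.24) was the 1 gene called, all 4 AMPA points lie left of 0, and the widest intervals belong to genes with few reads such as Gabrr1 and Gabrr2.

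Kainate receptor genes divided around Grik1. Grik1 encodes GluK1, the kainate receptor subunit known as the main one of small-diameter sensory neurons. Its level was 286, 255 and 264 CPM (reads scaled to the library's size) in MS275 replicates 1, 2 and 3, against 241, 211 and 231 CPM in vehicle replicates 1, 2 and 3. Every MS275 library lay above every vehicle library, though the lowest MS275 library and the highest vehicle library were close. The mean was 269 ± 16.0 CPM with MS275 and 228 ± 15.5 CPM in vehicle (SD, n = 3 each), a log2 fold change of 0.24 (SE 0.06, 95% interval 0.10 to 0.37, 1.18-fold, edgeR adjusted p = 0.0361). The call was lost when any of 4 libraries was left out: edgeR's adjusted p was 0.0748 without MS275 replicate 3 (log2 fold change 0.26), and 0.0648, 0.148 and 0.0944 without vehicle replicates 1, 2 and 3 (0.29, 0.19 and 0.25). Without MS275 replicate 1, the library with most skeletal muscle transcripts, it was 0.0485 (0.19). Grik1 lies on chromosome 16 from 87895901 to 88290863 and overlaps 5 other annotated genes, among them 4930590A17Rik. How reads of an overlap were assigned beyond the row of ambiguous reads is not known.

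The other kainate subunits were not called. Grik2, which encodes the GluK2 subunit, averaged 8.25 ± 0.80 CPM with MS275 and 10.2 ± 1.43 CPM in vehicle (SD, n = 3 each), with overlapping libraries (log2 fold change -0.31, 95% interval -0.58 to -0.05, edgeR adjusted p = 0.115). Grik3, encoding GluK3, had a log2 fold change of -0.10 (95% interval -0.26 to 0.06). Grik4 and Grik5 encode GluK4 and GluK5, which form channels only together with GluK1 to GluK3. Their log2 fold changes were -0.01 (95% interval -0.12 to 0.10) and 0.05 (95% interval -0.07 to 0.17), intervals that lie well inside 1.5-fold either way.

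All 4 AMPA receptor genes had log2 fold changes below 0, from -0.28 to -0.05, and 0 were called. 3 of the 4 had all MS275 libraries below all vehicle libraries, an order that 17.9% of all genes showed. Gria1, which encodes GluA1, a subunit whose delivery to synapses is known to strengthen them, had 17.5, 13.9 and 15.9 CPM in MS275 replicates 1, 2 and 3, against 20.9, 17.7 and 19.1 CPM in vehicle replicates 1, 2 and 3. The groups did not overlap, with MS275 replicate 1 just under vehicle replicate 2. Its log2 fold change was -0.28 (SE 0.10, 95% interval -0.50 to -0.07, edgeR adjusted p = 0.0893). Gria1 was called lower in edgeR without MS275 replicate 1 (log2 fold change -0.36, adjusted p = 0.0293), with the replicate number as a block (-0.29, adjusted p = 0.03) and with no filter beyond 1 count (-0.28, adjusted p = 0.0446). Gria4, encoding GluA4, had 76.6, 81.7 and 79.3 CPM in MS275 replicates 1, 2 and 3, against 85.3, 87.6 and 84.3 CPM in vehicle replicates 1, 2 and 3. The groups lay close together without overlap (log2 fold change -0.11, SE 0.04, 95% interval -0.21 to -0.02, edgeR adjusted p = 0.108). Gria3, on chromosome X, encodes GluA3 and averaged 21.4 ± 0.60 CPM with MS275 and 23.5 ± 0.44 CPM in vehicle (SD, n = 3 each), also without overlap (log2 fold change -0.14, edgeR adjusted p = 0.156). Gria2 encodes GluA2, the subunit that makes AMPA receptors impermeable to calcium. It averaged 23.0 ± 1.82 CPM with MS275 and 23.8 ± 0.74 CPM in vehicle (SD, n = 3 each), and its libraries overlapped (log2 fold change -0.05, 95% interval -0.21 to 0.11).

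NMDA receptor genes gave 0 calls among 4 tested. Grin1 encodes GluN1, the subunit that every NMDA receptor contains. Its level was 120, 130 and 138 CPM in MS275 replicates 1, 2 and 3, against 127, 131 and 125 CPM in vehicle replicates 1, 2 and 3. The MS275 libraries spread around the vehicle libraries (log2 fold change 0.02, 95% interval -0.10 to 0.14). Grin2d, encoding the GluN2D subunit, had 2.88, 3.20 and 2.66 CPM in MS275 replicates 1, 2 and 3, against 4.00, 3.69 and 3.78 CPM in vehicle replicates 1, 2 and 3. All MS275 libraries lay below all vehicle libraries, but the test did not pass (log2 fold change -0.38, SE 0.13, 95% interval -0.67 to -0.10, edgeR adjusted p = 0.0804). Grin2c, encoding GluN2C, averaged 0.78 ± 0.17 CPM with MS275 and 0.58 ± 0.14 CPM in vehicle (SD, n = 3 each), with 188 reads in all and an interval of -0.23 to 1.05 on the log2 scale. Grin3a, encoding GluN3A, had a log2 fold change of -0.03 (95% interval -0.19 to 0.14). Grin3b, encoding GluN3B, held 0.02 to 0.20 CPM in MS275 libraries and 0.09 to 0.33 CPM in vehicle libraries and was not tested. The genes of the GluN2A and GluN2B subunits, Grin2a and Grin2b, fell under the read minimum in these ganglia.

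Metabotropic glutamate receptors fall into group I, which includes Grm5 and excites through phospholipase C, and groups II (Grm2, Grm3) and III (Grm4, Grm6, Grm7, Grm8), which inhibit adenylyl cyclase. None of 6 tested was called in edgeR, DESeq2 or limma voom, and 0 had an unadjusted p under 0.05. Grm7, the group III gene with most reads, had 51.5, 51.5 and 59.4 CPM in MS275 replicates 1, 2 and 3, against 56.1, 55.2 and 52.5 CPM in vehicle replicates 1, 2 and 3. MS275 replicate 3 was highest and the other MS275 libraries lowest (log2 fold change -0.02, 95% interval -0.15 to 0.12). Grm4 and Grm8 had log2 fold changes of 0.02 (95% interval -0.12 to 0.16) and -0.01 (95% interval -0.16 to 0.14). The group I gene Grm5 had 0.585, 0.546 and 0.608 CPM in MS275 replicates 1, 2 and 3, against 0.656, 0.819 and 0.757 CPM in vehicle replicates 1, 2 and 3. The groups did not overlap, yet with 189 reads in all the interval ran from -0.89 to 0.16 on the log2 scale (log2 fold change -0.37, edgeR adjusted p = 0.333). Grm3, with 200 reads, gave an interval of -0.55 to 0.67 on the log2 scale.

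**Figure D2:**
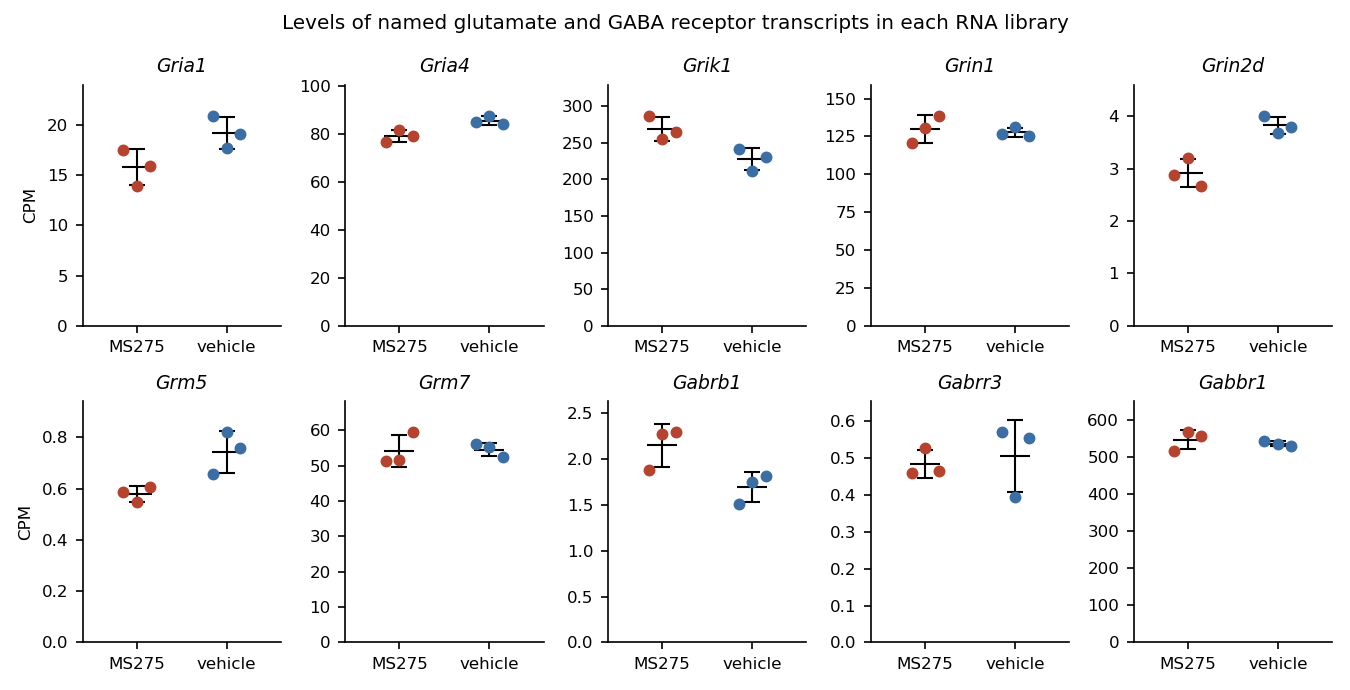
Level in CPM (vertical axes, each from 0) of 10 receptor genes in each RNA library, MS275 left and vehicle right, with the mean and SD over 3 libraries as bars. The groups are separate for Grik1 and Gabrb1 (higher with MS275) and for Gria1, Gria4, Grin2d and Grm5 (lower), of which only Grik1 passed the test, and they overlap for Grin1 and Gabbr1.

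GABA receptor genes gave 0 calls among 16 tested in edgeR and limma voom, and 1 had an unadjusted p under 0.05 in edgeR. DESeq2 also called 0, but it gave no adjusted p for at least Gabrr3, a gene with few reads. A typical GABA-A receptor joins alpha, beta and gamma subunits. Gabra2, Gabra3, Gabra4 and Gabra5, which encode alpha subunits, had log2 fold changes from -0.09 to 0.24, none with separate groups. Gabrb1, encoding a beta subunit, had 1.88, 2.27 and 2.29 CPM in MS275 replicates 1, 2 and 3, against 1.51, 1.75 and 1.82 CPM in vehicle replicates 1, 2 and 3. All MS275 libraries lay above all vehicle libraries, with MS275 replicate 1 close to vehicle replicate 3 (log2 fold change 0.34, SE 0.16, 95% interval -0.03 to 0.71, edgeR adjusted p = 0.205). Gabrb1 and Gabra4 overlap head to head on chromosome 5, where Gabrb1 starts at 71657921 and Gabra4 ends at 71658308, and how many reads fell in this overlap was not measured. Gabrb2, another beta subunit gene, averaged 7.16 ± 1.2 CPM with MS275 and 8.13 ± 1.83 CPM in vehicle (SD, n = 3 each), with overlapping groups (log2 fold change -0.18, 95% interval -0.56 to 0.20).

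The gamma subunit genes Gabrg1 and Gabrg3 had log2 fold changes of 0.01 (95% interval -0.17 to 0.19) and -0.01 (95% interval -0.42 to 0.41). The rho subunits form GABA-gated channels best known from the retina, and their genes had few reads here: 132 for Gabrr1, 71 for Gabrr2 and 139 for Gabrr3. Gabrr3 had 0.460, 0.528 and 0.463 CPM in MS275 replicates 1, 2 and 3, against 0.569, 0.393 and 0.555 CPM in vehicle replicates 1, 2 and 3, with overlap. Gabrr1 had the highest log2 fold change of the receptor genes, 0.84, but its libraries overlapped and its interval ran from -0.08 to 1.75 (edgeR adjusted p = 0.211).

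Neither GABA-B gene was called, and both intervals were narrow. Gabbr1, encoding the subunit that binds GABA, had 518, 567 and 558 CPM in MS275 replicates 1, 2 and 3, against 544, 535 and 531 CPM in vehicle replicates 1, 2 and 3. The MS275 libraries lay on both sides of the vehicle libraries (log2 fold change 0.03, 95% interval -0.07 to 0.13). Gabbr2, encoding the subunit that activates G proteins, had 201, 223 and 231 CPM in MS275 replicates 1, 2 and 3, against 214, 212 and 207 CPM in vehicle replicates 1, 2 and 3. Its groups overlapped too (log2 fold change 0.05, 95% interval -0.07 to 0.17).

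Genes that work with these receptors were taken from a list of 58, of which 54 were tested. Of these, 5 rose and 2 fell, against 5.10% higher and 5.89% lower of all genes, and the median log2 fold change was -0.02, against 0.00 over all genes. Among 14 auxiliary subunits of AMPA and kainate receptors, which govern their traffic and gating, 1 rose and 1 fell. Cacng7, encoding the TARP gamma 7, had 118, 124 and 133 CPM in MS275 replicates 1, 2 and 3, against 104, 112 and 108 CPM in vehicle replicates 1, 2 and 3 (log2 fold change 0.21, SE 0.05, edgeR adjusted p = 0.0365). Cacng4, encoding the TARP gamma 4, had 8.03, 8.32 and 8.02 CPM in MS275 replicates 1, 2 and 3, against 10.6, 11.1 and 11.7 CPM in vehicle replicates 1, 2 and 3 (log2 fold change -0.45, SE 0.08, edgeR adjusted p = 0.00954). Neither pair of groups overlapped, and the direction was opposite in these related subunits. Neto1 and Neto2, which encode the auxiliary subunits of kainate receptors, had log2 fold changes of -0.27 (edgeR adjusted p = 0.0846) and -0.01. Of 20 scaffold and anchor genes, among them Dlg4 (PSD-95), Gphn (gephyrin, the anchor of GABA-A receptors) and Homer1, 0 were called in edgeR, and 1 had an unadjusted p under 0.05.

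Of 8 transcripts for making, loading and clearing glutamate, 2 rose and 1 fell, against 5.10% higher and 5.89% lower of all genes. Glul, glutamine synthetase, a satellite glial enzyme that also stood in the marker list, had 532, 495 and 522 CPM in MS275 replicates 1, 2 and 3, against 426, 409 and 429 CPM in vehicle replicates 1, 2 and 3 (log2 fold change 0.29, SE 0.04, edgeR adjusted p = 0.00527). Slc1a3, the glial glutamate transporter GLAST, averaged 15.4 ± 0.36 CPM with MS275 and 12.8 ± 0.83 CPM in vehicle (SD, n = 3 each, log2 fold change 0.26, edgeR adjusted p = 0.047). Slc17a8, the vesicular glutamate transporter VGLUT3, known from low-threshold C fibres, averaged 15.4 ± 0.57 CPM with MS275 and 18.4 ± 0.60 CPM in vehicle (SD, n = 3 each, log2 fold change -0.25, edgeR adjusted p = 0.0399). The vesicular transporters of most sensory neurons, Slc17a7 and Slc17a6, had log2 fold changes of 0.07 and 0.02 and were not called. Of the satellite glial markers beside these, Fabp7 fell (log2 fold change -0.54, edgeR adjusted p = 0.0019) and 1 of 5 rose (Glul itself). The list's sum was 2872 to 3258 CPM with MS275 and 2803 to 2971 CPM in vehicle. Most of that sum came from Apoe, with 2100 to 2498 CPM with MS275 and 2087 to 2245 CPM in vehicle, so it says little about the other markers. The part of glial content in these results was not tested.

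On the GABA side, Slc12a5 rose. It encodes KCC2, the chloride exporter of mature central neurons, and had 1.86, 1.95 and 1.45 CPM in MS275 replicates 1, 2 and 3, against 0.941, 1.02 and 0.959 CPM in vehicle replicates 1, 2 and 3 (log2 fold change 0.85, SE 0.19, 95% interval 0.43 to 1.28, edgeR adjusted p = 0.0236). The 7 markers of spinal cord and brain summed to 20.4 to 23.8 CPM in MS275 libraries and 14.7 to 31.7 CPM in vehicle libraries. Most of that sum came from Aqp4 and Gfap, the only 2 tested, of which Aqp4 was called higher, and Neurod2 was at 0. The part of these markers in the Slc12a5 result was not tested. Slc12a2, encoding the importer NKCC1, averaged 149 ± 11.5 CPM with MS275 and 160 ± 6.75 CPM in vehicle (SD, n = 3 each), with overlapping groups (log2 fold change -0.10, 95% interval -0.23 to 0.03). Gabre, the GABA-A epsilon subunit gene, whose symbol has no number and so stood outside the receptor set, rose at a low level: it had 1.04, 0.564 and 0.724 CPM in MS275 replicates 1, 2 and 3, against 0.328, 0.360 and 0.378 CPM in vehicle replicates 1, 2 and 3 (log2 fold change 1.12, SE 0.31, edgeR adjusted p = 0.0465). Of 8 genes for making, loading, clearing and degrading GABA, 6 were tested and 0 called, and 1, Gad1, had an unadjusted p under 0.05. Gad1 averaged 0.60 ± 0.04 CPM with MS275 and 0.99 ± 0.18 CPM in vehicle (SD, n = 3 each, edgeR adjusted p = 0.0839), while Gad2 and Slc32a1 had 21 and 4 reads in all. Glul was called in every edgeR, DESeq2 and limma voom fit run. The other 6 each lost their call when 1 of certain libraries was left out: Cacng4 without vehicle replicate 2 (adjusted p = 0.0581), Slc12a5 without vehicle replicate 1, 2 or 3 (0.0937, 0.0943 and 0.0765) and Cacng7 without MS275 replicate 3 (0.0809) or vehicle replicate 1, 2 or 3 (0.142, 0.0943 and 0.106). Slc17a8 lost it without MS275 replicate 1 or 3 (0.0537 and 0.102) or vehicle replicate 1, 2 or 3 (0.148, 0.107 and 0.113), and Slc1a3 without MS275 replicate 2 or 3 (0.0645 and 0.0977) or vehicle replicate 1, 2 or 3 (0.0913, 0.143 and 0.15), all in edgeR. Gabre lost it without MS275 replicate 1 or 3 (0.114 and 0.0911) or vehicle replicate 1, 2 or 3 (0.157, 0.155 and 0.111), and DESeq2 and limma voom did not call it (0.0616 and 0.0621). With the replicate number as a block, Slc1a3 (0.0577), Slc17a8 (0.0546) and Gabre (0.0618) were not called in edgeR, nor was Slc1a3 with no filter beyond 1 count (0.0539).

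**Figure D3:**
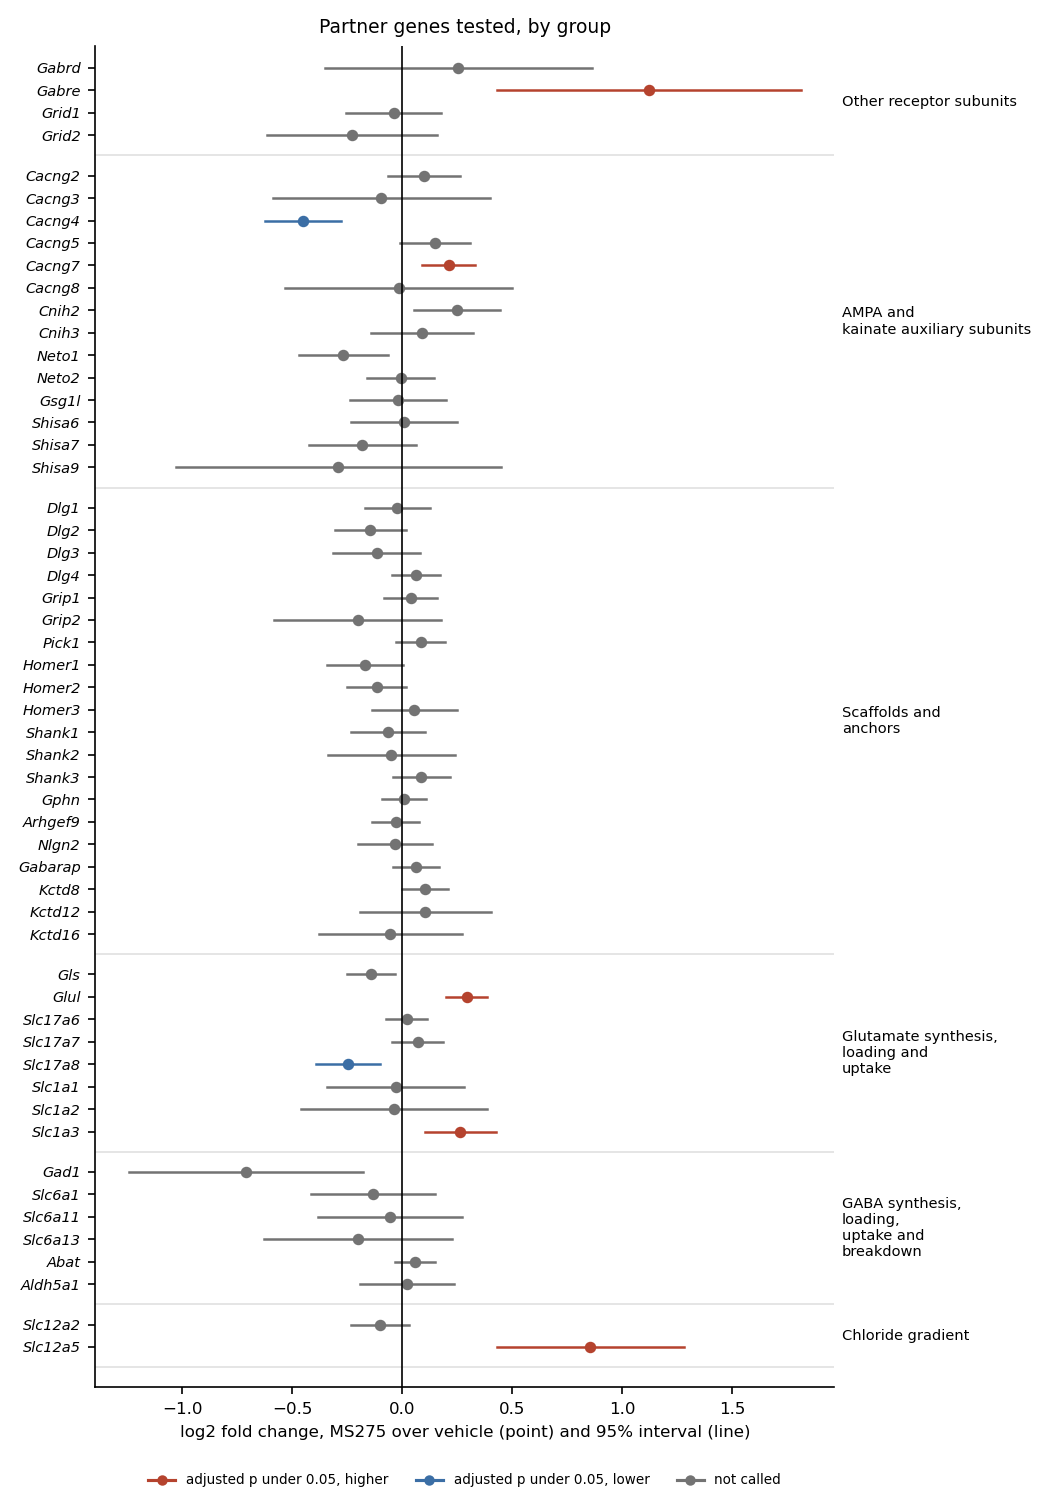
Log2 fold change of 54 partner genes (rows, by group), MS275 over vehicle, with points for the edgeR estimate and lines for the 95% interval (3 libraries per treatment). The 5 higher genes (Gabre, Cacng7, Glul, Slc1a3 and Slc12a5) and the 2 lower ones (Cacng4 and Slc17a8) are coloured, and the 20 scaffold and anchor genes lie close to 0.

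The defining markers of sensory ganglia were present. The 7 sensory neuron markers summed to 12774 to 14171 CPM in MS275 libraries and 12505 to 13013 CPM in vehicle libraries. In edgeR 0 were called and 4 had an unadjusted p under 0.05, with log2 fold changes from 0.01 to 0.22. In 5 of the 7 (71.4%) all MS275 libraries lay above all vehicle libraries, against 15.9% of all genes. The part of neuronal content in the Grik1 result was not tested. Of the 7 spinal cord and brain genes, Aqp4, a water channel gene, rose (log2 fold change 0.50, edgeR adjusted p = 0.0264), and Gfap, with 3.30 to 5.16 CPM in MS275 libraries and 16.8, 4.78 and 3.30 CPM in vehicle replicates 1, 2 and 3, was not called. Slc6a5 and Olig1 had 24 and 25 reads in all, 13 each of them in vehicle replicate 1, Mog had 4, Neurod6 had 1 and Neurod2 had 0. Skeletal muscle genes moved with treatment: 9 of 9 rose, and their sum was 93.7 to 633 CPM with MS275, highest in replicate 1, against 7.04 to 56.9 CPM in vehicle. All 3 mural cell genes and 2 of 4 endothelial genes also rose, with sums of 282 to 315 and 71.6 to 85.7 CPM with MS275, against 219 to 244 and 58.2 to 64.1 CPM in vehicle. Their part in the receptor results was not tested. With muscle, haemoglobin and mitochondrial genes left out of the library sizes, Grik1 kept a log2 fold change of 0.24 (edgeR adjusted p = 0.033).

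Open chromatin lay at the start of most receptor genes in both lists. A merged region lay within 1000 bp of the start of 29 of 36 genes in the MS275 list and of 31 in the vehicle list, where the 10 genes with no start in the table, Grik1 among them, were taken by either end. Of the 26 with a start, 22 (84.6%) had a region in the MS275 list and 23 (88.5%) in the vehicle list, against 90.4% and 91.2% of 11578 tested genes with a start. Grin3b was the gene with a start that had a region in the vehicle list alone. Unlike the genes of that background, Grin3b was not tested for expression. Grik1 had 1 region at an end in each list, 1580 bp wide with MS275 and 1429 bp in vehicle, with the authors' best fold enrichment of 2.47 and 2.33 within their own lists, and 43 and 45 regions over its length. Gabbr1 had a region of 1386 bp in the MS275 list and 1365 bp in the vehicle list at its start, and Gria4 of 1158 and 1114 bp. A single region covered the neighbouring starts of Gabra4 and Gabrb1, 1333 bp wide in the MS275 list and 1354 bp in the vehicle list. Gabrr1 and Gabrr3 had 0 regions at their start in either list. Gria3 and Gabra3 had 0 regions anywhere, and both lie on chromosome X, which held 0.347% of the merged regions of the MS275 list and 0.320% of those of the vehicle list.

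Counted once each, 658 merged regions of the MS275 list and 667 of the vehicle list lay over the receptor genes or their starts, out of 161788 and 177906 regions. They covered 313383 bp in the MS275 list and 329674 bp in the vehicle list, with a mean best fold enrichment of 1.84 and 1.78. Of the MS275 regions, 51.8% overlapped a region of the vehicle list, and of the vehicle regions 50.7% overlapped one of the MS275 list. The same shares over all regions of each list are not given here, so these shares have no background to be read against. Grik4 had 91 in the MS275 list and 105 in the vehicle list, Gabbr2 had 76 and 90, Grik1 43 and 45, and Grik3 41 and 50. Grik2 had 19 in the MS275 list and 8 in the vehicle list. With 1 combined list per treatment these differences have no replicate check, and the depth behind each list is unknown.

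**Figure D4:**
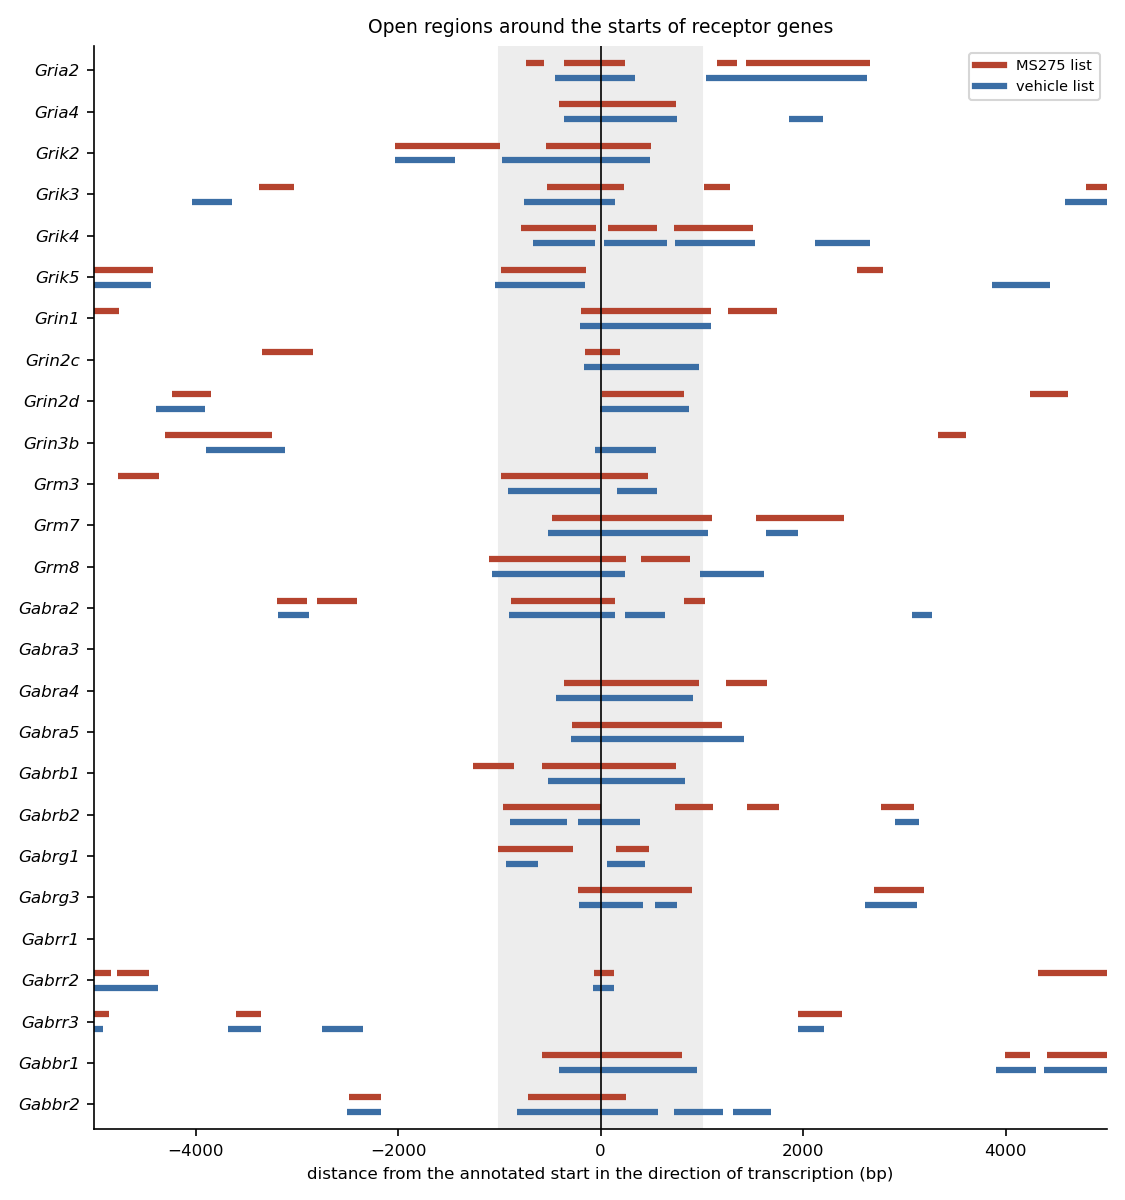
Merged open regions (bars) of the MS275 list (above) and the vehicle list (below) around the annotated start of 26 receptor genes, by distance in bp in the direction of transcription, with the window of 1000 bp either side shaded. A region lay in the window for 22 genes in the MS275 list and 23 in the vehicle list, and Gabra3, Gabrr1 and Gabrr3 had 0 there in both.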

How the data were processed

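RNA libraries were assigned to treatment and replicate by their titles, and the series' design text calls the triplicates biological. Members, lists and tests were chosen with earlier results of these data known. The authors deposited read counts per gene symbol, raw, with mm10, STAR 2.7.0, edgeR 3.24.3 and limma 3.38.3 named without roles per the submitters' processing notes. RNA of integrity number above 8.0 was poly(A)-selected into strand-specific libraries of 75 bp read pairs, per the labels' protocols; which program counted the reads, and whether by strand, is not stated in these sources. Rows naming no gene (18.9% to 20.6% of all reads, including 0.592% to 0.630% marked ambiguous) stayed out.

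The counts of all genes entered edgeR 4.0.16 (R 4.3.3) with treatment as the only term, after TMM scaling and filterByExpr. Genes were called at an adjusted p (Benjamini-Hochberg) under 0.05 in the 2-sided quasi-likelihood test. The test was also run on simulated data, drawn with the same spread per gene in both treatments, which does not establish the calls made here. CPM used TMM library sizes, and SE is the absolute log2 fold change over the square root of F. Counts over receptor genes include 4 that are not reported singly here. Transcript lengths were not used, so levels are compared within a gene. Replicates of a group differed by more than sampling noise (chi-square per degree of freedom of 6.78 or more). Alternatives used DESeq2 1.42.0, limma 3.58.1 voom, other normalisations, no filter, the replicate number as a block, and each library left out.

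Named genes were those with adjusted p under 0.05, those with separate groups and an absolute log2 fold change of at least 0.2, and the member with most reads per class; the AMPA genes and others without separate groups are given beside them, and partner genes where called or, chosen after their values were seen, as comparisons. ATAC lists, 1 combined per treatment, hold, as deposited by the authors, a score, a fold enrichment ratio and a -log10 q-value for each peak. Their peak caller is not stated in these sources. Fold belongs to its own list, and where values of both lists stand side by side their difference was not tested. Entries were merged with bedtools 2.31.1, overlap of at least 1 bp.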

Additional observations from a re-analysis of the deposited data

How the results depend on the processing

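Of the 10 receptor genes plotted by library, Gabrr3, Grin1 and Grm7, all uncalled and near 0, changed sign in some settings, and the others did not. Receptor genes called higher numbered 1 in every setting that kept all libraries (other normalisations, DESeq2, limma voom, no filter, the block, and muscle, haemoglobin and mitochondrial genes left out), and 0 to 1 when 1 library was left out. Receptor genes called lower were 0, and 1 (Gria1) with no filter, 1 with the replicate block and 0 to 1 with a library left out. Over all genes, 858 higher and 991 lower became 127 to 1388 and 134 to 1375 with a library left out, so the background moves with the library too. Partner genes called higher were 1 to 5 and lower 0 to 3 with a library left out, and 3 and 1 with the replicate block, which left the receptor call of Grik1 in place (0.24, edgeR adjusted p = 0.0118). Deviations of genes from their group mean correlated at 0.02, 0.11 and -0.06 between same-numbered MS275 and vehicle libraries. Between libraries of unlike number they correlated at -0.15 to 0.11. These values gave no sign of pairing by number, which was not tested further. With a -log10 q of at least 5, regions over receptor genes fell to 97 in the MS275 list and 156 in the vehicle list. The whole lists fell too, to 32235 merged regions for MS275 and 45078 for vehicle. When the overlap had to cover at least 0.5 of a region, the shared part was 43.6% of the MS275 regions and 41.7% of the vehicle regions over receptor genes, again without the shares over all regions. The cause of these shifts was not tested, apart from fewer libraries or regions entering. The 95% interval reached beyond 1.5-fold for every receptor gene tested with 200 reads or fewer, and also for Gabra4 (446 reads), Gabrb1 (542 reads) and Grin2d (964 reads).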
